A study of Mus musculus with 20 samples.

Results

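The 10 core circadian clock genes of the mouse were followed in liver and in epididymal white adipose tissue (eWAT, the fat pad beside the epididymis): Arntl (also called Bmal1), Clock, Npas2, Per1, Per2, Per3, Cry1, Cry2, Nr1d1 and Nr1d2. They were taken by gene symbol, and all 10 were present among the 15608 genes of the liver count table and the 20738 genes of the eWAT count table. After the filter on low counts 9 of the 10 were tested among 12421 genes in liver, where Npas2 did not pass, and 10 of 10 among 16476 genes in eWAT. The mice were males aged 2 months. They carried either IR 4A, an insulin receptor whose MAD2-binding motif was mutated (MAD2 is a protein of the mitotic checkpoint), or the wild-type receptor (WT). Each of the 4 groups held 5 libraries: IR 4A liver, WT liver, IR 4A eWAT and WT eWAT. The sources used here give no strain, feeding state or time of collection, and nothing in them says which libraries came from 1 animal. The p-values below measure the spread between these libraries.

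The clock is a feedback loop of transcription that runs in nearly every cell. ARNTL pairs with CLOCK or NPAS2 and switches on genes that carry the E-box motif, among them the Per, Cry and Nr1d genes. PER and CRY proteins return to the nucleus and block that pair, and REV-ERBalpha and REV-ERBbeta, the products of Nr1d1 and Nr1d2, repress Arntl, Clock and Npas2 through the ROR element. The activator transcripts are therefore high when most repressor transcripts are low, with Nr1d1 and Nr1d2 peaking ahead of Per2 and Cry1. A shift in the time of collection can thus move activators and most repressors in opposite directions, though not every member at every time. In liver and fat the loop times genes of lipid, bile acid and glucose metabolism.

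Promoter windows are shown for the members whose stretch of 300 bases, 250 before to 50 after the start of a transcript, held a match to the E-box or the ROR element, because the loop closes on itself through such motifs. Windows were found for 9 of the 10 members, 13 windows in all, in RefSeq sequence of build GRCm38.p6. The motifs searched on both strands were CACGTG (E-box), AGGTCA (ROR element) and TTANGTAA (D-box), and capitals mark the first and second of these. The ROR element was read as these letters alone, with no rule on the bases beside them. Each sequence runs 5′ to 3′ on the strand of its gene.
Per1 promoter, chr11:69098699-69098998, plus strand: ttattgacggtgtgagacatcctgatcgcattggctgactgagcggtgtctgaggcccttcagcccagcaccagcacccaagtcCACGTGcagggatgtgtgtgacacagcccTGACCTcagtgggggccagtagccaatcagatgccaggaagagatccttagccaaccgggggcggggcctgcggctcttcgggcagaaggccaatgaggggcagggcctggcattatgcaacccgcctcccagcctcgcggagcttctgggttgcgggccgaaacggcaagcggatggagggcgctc
Cry1 promoter, chr10:85185005-85185304, minus strand: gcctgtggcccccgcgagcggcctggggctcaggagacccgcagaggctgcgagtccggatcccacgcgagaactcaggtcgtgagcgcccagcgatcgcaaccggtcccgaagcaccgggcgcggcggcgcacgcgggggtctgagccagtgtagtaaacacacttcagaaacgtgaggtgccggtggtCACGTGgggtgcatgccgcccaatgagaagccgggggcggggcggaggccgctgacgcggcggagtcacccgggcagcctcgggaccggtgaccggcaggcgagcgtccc
Arntl promoter, chr7:113207261-113207560, plus strand: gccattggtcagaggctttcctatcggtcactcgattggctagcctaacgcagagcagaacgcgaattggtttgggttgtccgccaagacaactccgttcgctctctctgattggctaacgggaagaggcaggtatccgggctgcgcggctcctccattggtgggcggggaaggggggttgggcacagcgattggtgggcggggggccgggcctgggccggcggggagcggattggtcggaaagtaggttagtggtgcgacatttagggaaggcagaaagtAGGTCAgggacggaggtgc
Nr1d2 promoter, chr14:18239057-18239356, minus strand: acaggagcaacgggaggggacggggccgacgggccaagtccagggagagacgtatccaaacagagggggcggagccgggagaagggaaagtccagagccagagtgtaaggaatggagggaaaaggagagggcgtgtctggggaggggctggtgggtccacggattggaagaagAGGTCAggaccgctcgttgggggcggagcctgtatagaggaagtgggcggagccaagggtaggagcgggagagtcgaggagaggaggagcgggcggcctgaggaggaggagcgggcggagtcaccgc
The E-box began 166 bases before the Per1 start shown and 60 bases before the Cry1 start. A match to AGGTCA lay 137 bases before that Per1 start, 77 bases before the Nr1d2 start and 31 bases after the Arntl start shown. Another lay 119 bases before 1 of the 3 Clock starts, whose window is not shown. Per1 and Arntl each had another window, which held neither motif. The Per3 window held 2 D-boxes, 205 and 158 bases before its start. Over all 32851 windows of this length 7.15% held an E-box, 16.3% a ROR element and 2.32% a D-box, so such a match alone sets no gene apart.

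Depth ranged over 18209000 to 24238359 counts in IR 4A livers, 17989420 to 21067651 in WT livers, 13651874 to 15530589 in IR 4A eWAT and 15702786 to 21615358 in WT eWAT. Insr, the mutated gene, averaged 168 ± 10.1 CPM (counts scaled to a common library total) in IR 4A livers and 157 ± 7.86 CPM in WT livers, and 128 ± 29.7 CPM in IR 4A eWAT and 158 ± 33.0 CPM in WT eWAT (SD, n = 5 each), so its level does not tell the genotypes apart. The liver libraries were rich in hepatocyte genes: Alb, which encodes albumin, stood at 40791 to 54034 CPM in IR 4A livers and 38874 to 47887 CPM in WT livers. Liver WT 1 and WT 3 stood apart from all other livers. Their 20 acute phase genes, which the liver makes under inflammation, summed to 73428 and 43087 CPM, against 8059 to 15283 CPM in the IR 4A livers and 12035 to 13778 CPM in the other WT livers. The eWAT libraries held RNA of the neighbouring organ in amounts that exceeded the adipocyte markers in every library but WT 4. The 13 epididymis markers summed to 33390 to 44720 CPM in IR 4A and 5092 to 38030 CPM in WT eWAT, and the 10 adipocyte markers to 2816 to 15437 CPM in IR 4A and 9320 to 30954 CPM in WT eWAT. The 12 testis germ cell markers summed to 90.1 to 2894 CPM in IR 4A and 93.2 to 6244 CPM in WT eWAT. The fold changes of the members in liver are therefore also given without WT 1 and WT 3, and those in eWAT without WT 4, IR 4A 3 and IR 4A 4, the highest and the 2 lowest libraries in adipocyte markers.

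In liver no clock gene differed between IR 4A and WT past an adjusted p of 0.05 (edgeR's quasi-likelihood test, Benjamini-Hochberg), and in no clock gene were the 5 IR 4A and 5 WT libraries fully separated. Of all 12421 genes tested 0.00805% passed, and 3.5% had groups that did not overlap. At an unadjusted p under 0.05, which 18.1% of all genes reached, 4 of the 9 members stood: Clock lower, and Per3, Cry2 and Nr1d2 higher. Both measured activators had negative log2 fold changes and 6 of the 7 repressors positive ones, with Nr1d1 the exception. Without WT 1 and WT 3 most of that opposition was gone, as set out below.

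Arntl, the activator without which the loop stops, was scarce in liver. It stood at 0.713, 1.30, 1.13, 1.04 and 1.11 CPM in IR 4A livers 1 to 5, against 2.97, 0.828, 1.25, 0.678 and 0.349 CPM in WT livers 1 to 5. Those values rest on 16 to 30 counts in an IR 4A library and 7 to 53 in a WT library. WT 1 was the highest of all 10 livers and WT 5 the lowest, so the IR 4A range lay wholly inside the WT range. The fitted log2 fold change was -0.20 ± 0.46 (SE; edgeR quasi-likelihood test, adjusted p = 0.857).

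Clock, whose protein is the usual partner of ARNTL, stood at 23.3, 23.2, 20.8, 25.7 and 22.0 CPM in IR 4A livers, against 46.2, 25.3, 35.9, 24.0 and 23.9 CPM in WT livers. WT 1 and WT 3 were the 2 highest, and the other 3 WT livers fell within the IR 4A range. Its log2 fold change was -0.43 ± 0.17 with 10 libraries (edgeR quasi-likelihood test, adjusted p = 0.229). Npas2, which can stand in for Clock, had 0 to 2 counts in each IR 4A liver and 1 to 3 in each WT liver, in sum 4 and 9, and no fold change is given at such counts. With a floor of 3 counts per library, neither group exceeded it.

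Among the Period genes, whose proteins carry the delayed negative signal, Per3 had the largest value. It stood at 24.4, 32.9, 43.6, 41.6 and 39.0 CPM in IR 4A livers, against 9.58, 33.4, 20.2, 21.3 and 21.7 CPM in WT livers. All IR 4A livers exceeded 4 of the 5 WT livers, and WT 2 was in the middle of the IR 4A range. The log2 fold change was 0.77 ± 0.26 (edgeR quasi-likelihood test, adjusted p = 0.175). Per2, the Period gene most needed for rhythm, stood at 33.5, 38.2, 30.7, 29.1 and 44.0 CPM in IR 4A livers, against 11.9, 36.1, 12.1, 27.4 and 29.8 CPM in WT livers. WT 1 and WT 3 were again apart, this time at the low end, and the other 3 WT livers overlapped the IR 4A group. For Per2 the log2 fold change was 0.58 ± 0.28 (edgeR quasi-likelihood test, adjusted p = 0.298). Per1, which also answers to acute cues such as glucocorticoids, averaged 50.9 ± 8.47 CPM in IR 4A livers and 43.1 ± 11.8 CPM in WT livers (SD, n = 5 each), a log2 fold change of 0.24 ± 0.18 (edgeR quasi-likelihood test, adjusted p = 0.491).

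The Cryptochromes are the direct blockers of the activator pair. Cry2 stood at 32.3, 41.2, 40.4, 39.8 and 44.9 CPM in IR 4A livers, against 25.2, 39.3, 28.1, 34.0 and 33.1 CPM in WT livers, so that 4 of the 5 IR 4A livers exceeded every WT liver. Its log2 fold change was 0.32 ± 0.12 (edgeR quasi-likelihood test, adjusted p = 0.221). Cry1 averaged 4.75 ± 1.62 CPM in IR 4A livers and 3.72 ± 1.96 CPM in WT livers (SD, n = 5 each), with a log2 fold change of 0.34 ± 0.35 (edgeR quasi-likelihood test, adjusted p = 0.638). Its 2 lowest livers were WT 3 and WT 1, at 1.75 and 2.13 CPM.

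The REV-ERB genes did not move as a pair. Nr1d1 stood at 68.8, 58.8, 96.9, 81.4 and 57.7 CPM in IR 4A livers, against 97.6, 71.5, 102, 89.9 and 49.5 CPM in WT livers, and here WT 1 and WT 3 were the highest, on the side of the activators. Its log2 fold change was -0.17 ± 0.20 (edgeR quasi-likelihood test, adjusted p = 0.672). Nr1d2 stood at 112, 111, 117, 119 and 137 CPM in IR 4A livers, against 78.6, 114, 102, 105 and 108 CPM in WT livers, and 3 of the IR 4A livers exceeded all WT livers. For Nr1d2 the log2 fold change was 0.23 ± 0.10 (edgeR quasi-likelihood test, adjusted p = 0.262).

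**Figure D1:**
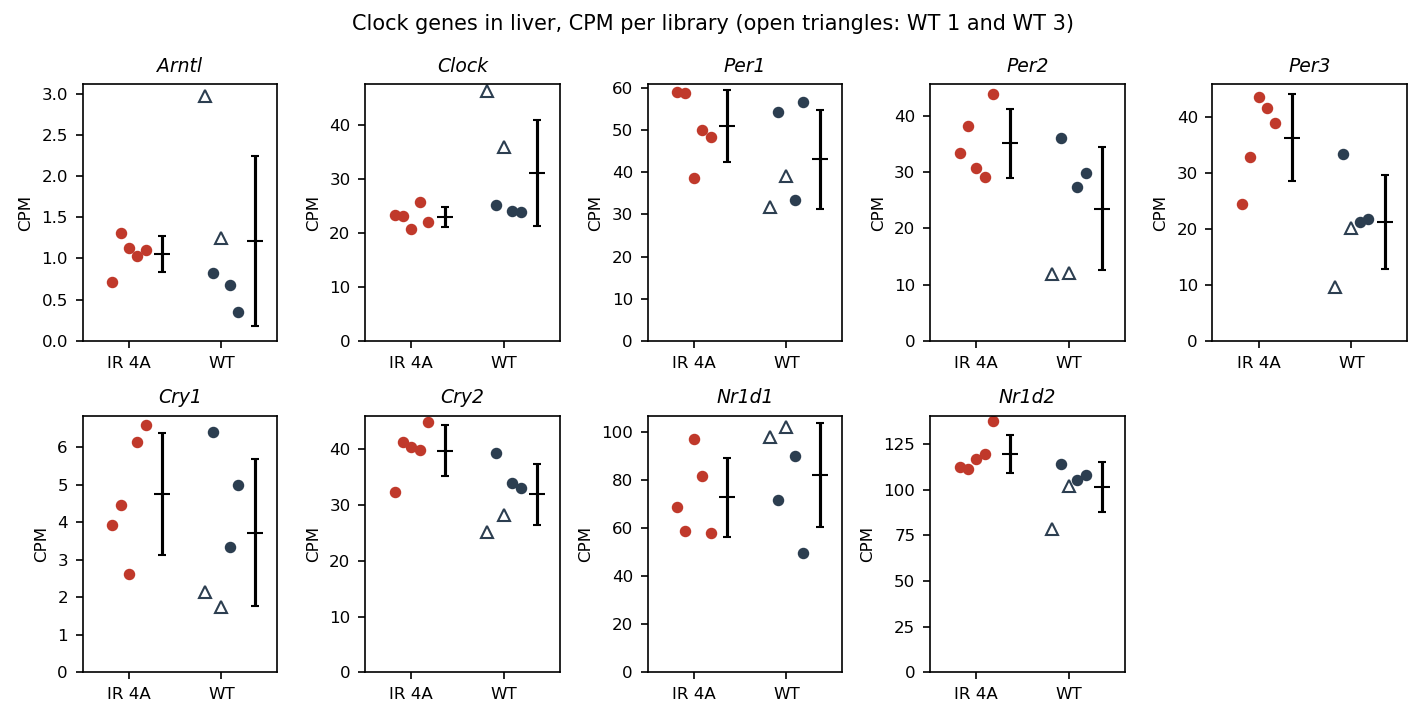
CPM of the 9 tested clock genes in each liver library (points; IR 4A left, WT right), with the mean and SD (n = 5) beside each group. WT 1 and WT 3, drawn as open triangles, sit at the high end for Clock and Nr1d1 and at the low end for Per2, Cry1 and Cry2.

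With WT 1 and WT 3 left out the WT group held 3 livers and the log2 fold changes were nearer 0 in 8 of the 9 members, Arntl being the exception, and changed sign in 3. Clock was -0.09 ± 0.09, Per2 0.17 ± 0.14, Cry2 0.16 ± 0.11 and Nr1d2 0.13 ± 0.08, and Per1 was 0.08 ± 0.18. Per3 kept the largest value of the repressors, 0.51 ± 0.20 (edgeR quasi-likelihood test, unadjusted p = 0.0313, adjusted p = 0.349). Arntl turned to 0.78 ± 0.36 (edgeR quasi-likelihood test, adjusted p = 0.399), Cry1 to -0.06 ± 0.30 and Nr1d1 to 0.05 ± 0.21. The log2 fold change of Arntl was then positive, as were those of Per1, Per2, Per3, Cry2, Nr1d1 and Nr1d2, so that Arntl and 6 of the repressors had the same sign. No member passed the threshold in either fit. WT 1 and WT 3 held the highest activator and the lowest repressor means of the livers, so leaving them out by itself lessens the opposition. The signs without them are therefore a description and no test. Fibroblast markers also leaned upward in IR 4A livers, with positive log2 fold changes in 9 of 9 tested genes (median 0.41), and in 10 of 10 (median 0.75) without WT 1 and WT 3. Endothelium markers were positive in 10 of 10 (median 0.23) and macrophage markers in 8 of 10 (median 0.14). The summed fibroblast level was 221 to 308 CPM in IR 4A and 186 to 217 CPM in WT livers, and the part of these cell types in the clock values was not tested.

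In eWAT, too, no clock gene passed an adjusted p of 0.05 between IR 4A and WT (edgeR's quasi-likelihood test, Benjamini-Hochberg), where 0.0121% of the 16476 genes passed. The groups overlapped in all 10 members, against 5.69% of genes whose groups did not. At an unadjusted p under 0.05, reached by 15.9% of genes, Clock alone of the 10 stood. Activators and repressors did not move apart: 2 of the 3 activators and 6 of the 7 repressors had negative log2 fold changes, and the median over all genes was -0.08. In these bulk samples fewer cells of a type and less RNA per cell cannot be told apart.

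Clock stood at 54.3, 58.2, 45.4, 44.2 and 55.2 CPM in IR 4A eWAT, against 57.3, 71.3, 60.0, 61.3 and 60.9 CPM in WT eWAT. IR 4A 2 alone exceeded the lowest WT library. The log2 fold change was -0.27 ± 0.10 (edgeR quasi-likelihood test, unadjusted p = 0.0225, adjusted p = 0.253), and DESeq2 on the same genes put Clock just past the threshold (-0.27, adjusted p = 0.0489), where DESeq2 called 7.31% of all genes. Arntl stood at 8.95, 9.82, 12.2, 11.7 and 10.9 CPM in IR 4A eWAT, against 12.4, 11.3, 12.2, 11.7 and 13.8 CPM in WT eWAT, with 3 IR 4A libraries below every WT library. For Arntl the log2 fold change was -0.20 ± 0.12 (edgeR quasi-likelihood test, adjusted p = 0.458). Npas2, measurable here, averaged 4.35 ± 0.914 CPM in IR 4A and 4.12 ± 0.935 CPM in WT eWAT (SD, n = 5 each), a log2 fold change of 0.08 ± 0.22 (edgeR quasi-likelihood test, adjusted p = 0.864).

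The repressors were spread widely within each genotype. Nr1d1 stood at 92.5, 62.8, 39.1, 43.2 and 87.5 CPM in IR 4A eWAT, against 90.2, 61.9, 66.8, 136 and 106 CPM in WT eWAT. IR 4A 3 and IR 4A 4 were the 2 lowest and WT 4 the highest of the 10 libraries. Its log2 fold change, -0.50 ± 0.30, was the largest of the members (edgeR quasi-likelihood test, adjusted p = 0.435). With 1 surrogate variable in the model Nr1d1 was at -0.65 and Cry2 at -0.31, both past the threshold (edgeR quasi-likelihood test, adjusted p = 0.0311 for Nr1d1 and 0.0401 for Cry2), and 10.3% of all genes passed in that fit. With the testis marker level as a covariate the same 2 passed, at -0.64 and -0.30 (edgeR quasi-likelihood test, adjusted p = 0.0256 and 0.0357), in a fit where 10.9% of all genes did.

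Per3 stood at 109.8, 91.9, 51.5, 64.3 and 109 CPM in IR 4A eWAT, against 68.9, 63.6, 94.4, 124 and 86.6 CPM in WT eWAT, with a log2 fold change of -0.04 ± 0.25 (edgeR quasi-likelihood test, adjusted p = 0.941). Per2 ran from 19.4 to 48.2 CPM in IR 4A and from 30.6 to 77.4 CPM in WT eWAT, with a log2 fold change of -0.24 ± 0.31 (edgeR quasi-likelihood test, adjusted p = 0.728). The lowest Per2 and Per3 libraries were IR 4A 3 in both cases, and WT 4 was the highest in both. Per1 stood at 135, 133, 109, 110.3 and 125 CPM in IR 4A eWAT, against 127, 151, 134, 243 and 127 CPM in WT eWAT, where WT 4 lay far above the rest, and its log2 fold change was -0.36 ± 0.18 (edgeR quasi-likelihood test, adjusted p = 0.373).

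Cry2 averaged 41.0 ± 7.33 CPM in IR 4A and 48.5 ± 9.69 CPM in WT eWAT, Cry1 12.4 ± 1.45 and 13.8 ± 3.56 CPM, and Nr1d2 104 ± 23.2 and 103 ± 14.8 CPM (SD, n = 5 each, IR 4A and then WT in each pair). Cry1 ran against its family: WT 4, the top library for Per1, Per2, Per3, Cry2, Nr1d1 and Nr1d2, was the lowest for Cry1 at 9.75 CPM. The log2 fold changes were -0.24 ± 0.16 for Cry2, -0.16 ± 0.18 for Cry1 and 0.01 ± 0.16 for Nr1d2.

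**Figure D2:**
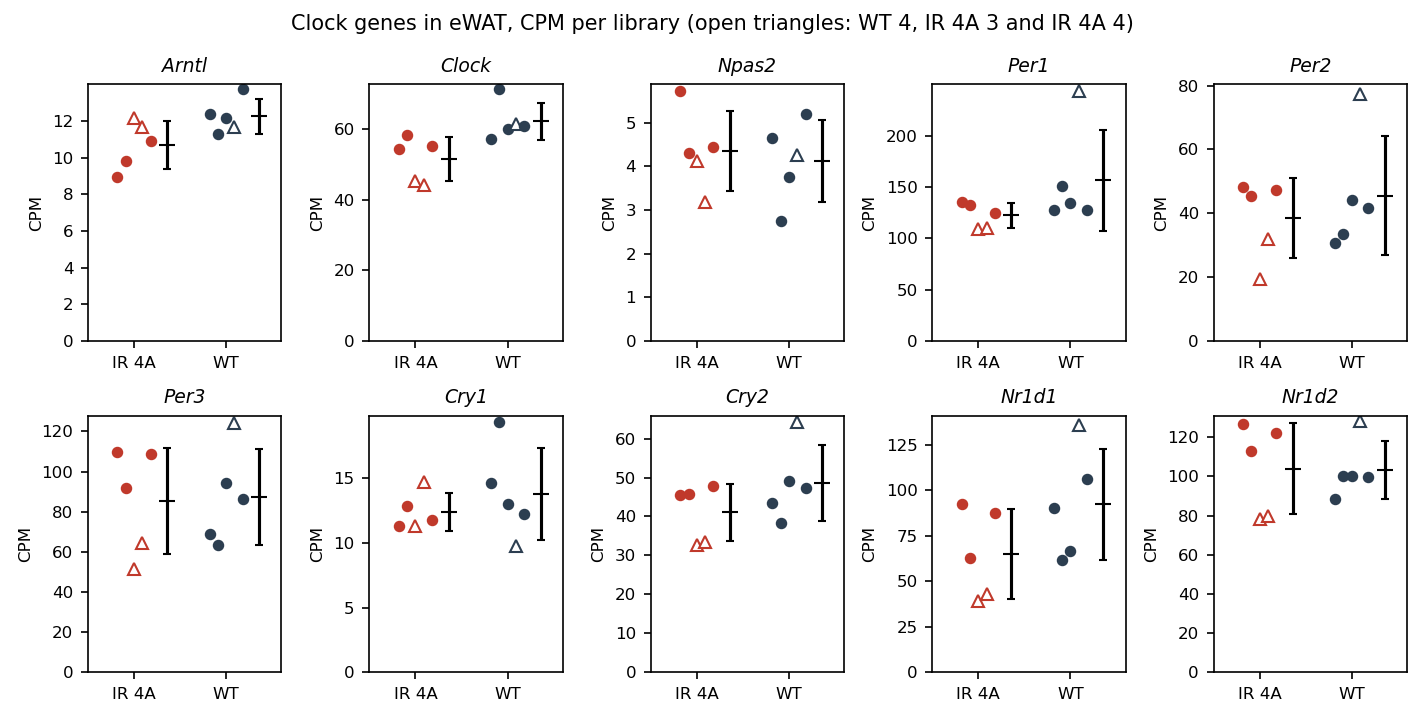
CPM of the 10 clock genes in each eWAT library (points; IR 4A left, WT right), with the mean and SD (n = 5) beside each group. Open triangles mark WT 4, the highest library for 6 of the 7 repressors, and IR 4A 3 and IR 4A 4, the 2 lowest for Nr1d1, Nr1d2 and Cry2.

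The mean of the 7 repressors was highest and lowest in the eWAT libraries with the most and the fewest adipocyte markers. Cry1 did not follow this order: it was lowest in WT 4, at 9.75 CPM, with 11.3 CPM in IR 4A 3 and 14.7 CPM in IR 4A 4. WT 4 held 30954 CPM of the 10 adipocyte markers and a mean of 6.37 log2 CPM over the 7 repressors. IR 4A 3 and IR 4A 4 held 2816 and 4248 CPM of those markers, and means of 5.27 and 5.50 log2 CPM. The other 7 libraries lay between, at 9320 to 15437 CPM and 5.76 to 6.0 log2 CPM. Adipoq, the defining adipocyte hormone, ran from 153 to 944 CPM in IR 4A and from 594 to 2169 CPM in WT eWAT, and was at 0 in no library. The adipocyte, macrophage, fibroblast and endothelium markers also had negative log2 fold changes in IR 4A eWAT in 10 of 10, 9 of 9, 10 of 10 and 10 of 10 tested genes, with medians of -0.88, -1.34, -1.29 and -0.98, and none of these genes passed the threshold. Their summed levels were 156 to 357 CPM in IR 4A and 450 to 1358 CPM in WT for macrophages, 882 to 2506 and 3260 to 8021 CPM for fibroblasts, and 174 to 741 and 513 to 1545 CPM for endothelium. In each of these sums, too, WT 4 was the highest library and IR 4A 3 and IR 4A 4 the lowest. The adipocyte markers therefore cannot be told apart from these lists here. Epididymis markers had positive log2 fold changes in 12 of 12 tested genes, with a median of 0.75. Apart from the fits that follow, the part of these cell types in the clock values was not tested.

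Without WT 4, IR 4A 3 and IR 4A 4 the repressors no longer leaned towards lower values. These libraries held the highest WT and the lowest IR 4A repressor means, so leaving them out could only raise the mean repressor change. The signs in this fit are therefore a description and no test. In the remaining 3 IR 4A and 4 WT libraries Per2 was at 47.0 ± 1.4 CPM in IR 4A and 37.5 ± 6.46 CPM in WT, Per3 at 103 ± 10.03 and 78.4 ± 14.5 CPM, and Nr1d2 at 120.5 ± 7.12 and 97.2 ± 5.75 CPM (SD, IR 4A and then WT in each pair). Their log2 fold changes were 0.32 ± 0.14, 0.40 ± 0.16 and 0.31 ± 0.08 (edgeR quasi-likelihood test, adjusted p = 0.289, 0.265 and 0.253). Nr1d1 was at -0.01 ± 0.23 and Per1 at -0.04 ± 0.09, while Arntl was at -0.33 ± 0.14 and Clock at -0.16 ± 0.10. Npas2 was at 0.23 ± 0.27, Cry1 at -0.31 ± 0.19 and Cry2 at 0.05 ± 0.10. No member passed the threshold. Testis markers were lower in IR 4A in this fit, with negative log2 fold changes in 12 of 12 tested genes and a median of -4.01. The part of testis RNA in this fit was not tested. With the adipocyte marker level as a covariate in all 10 libraries Per3 passed, with a log2 fold change of 0.40 (edgeR quasi-likelihood test, adjusted p = 0.0454), the opposite sign to the fit without it, and 5.26% of all genes passed. Both settings were chosen after the data were seen.

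**Figure D3:**
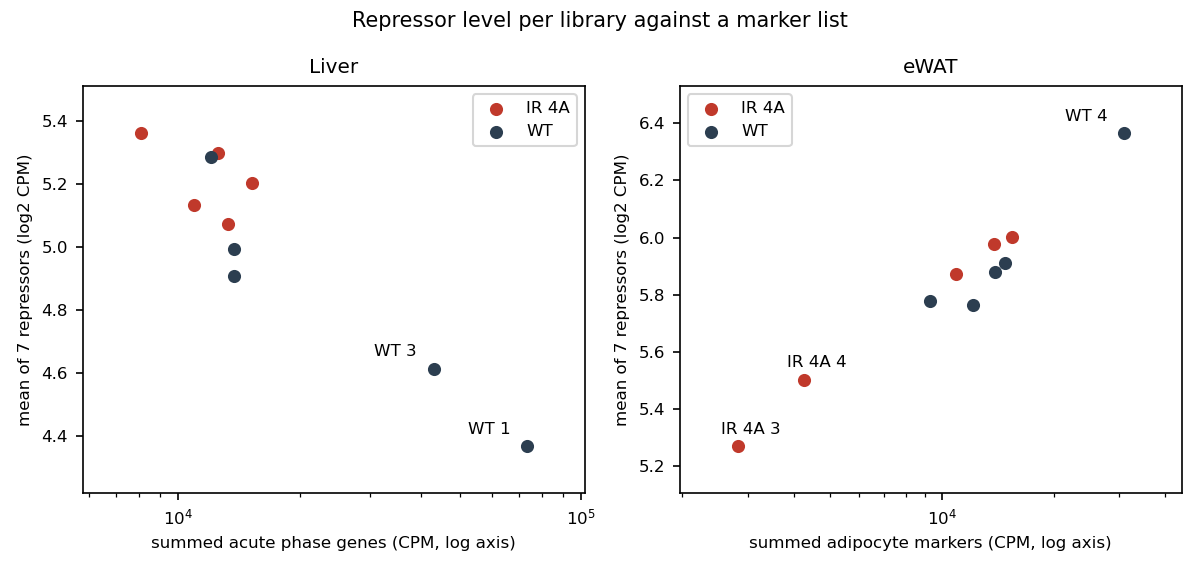
Mean log2 CPM of the 7 repressors in each library against the summed CPM of a marker list on a log axis, for the acute phase genes in liver (left) and the adipocyte markers in eWAT (right). Liver WT 1 and WT 3 have the highest acute phase sums and the lowest repressor means, and eWAT WT 4, IR 4A 4 and IR 4A 3 lie at the ends of the adipocyte range.

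**Figure D4:**
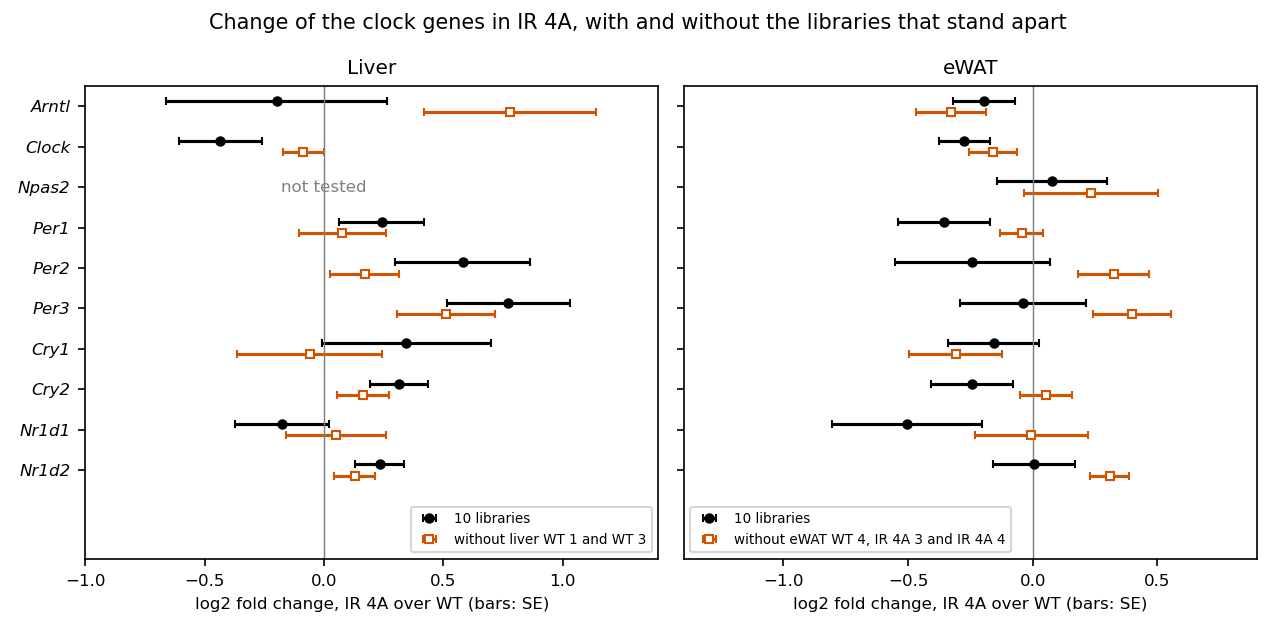
Log2 fold changes of each clock gene, IR 4A over WT, with SE bars, from all 10 libraries of a tissue (filled circles) and without the libraries that stand apart (open squares). In liver the values of Clock and of most repressors move towards 0 and Arntl moves to 0.78. In eWAT Per2, Per3 and Nr1d2 move above 0.

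To set activators against repressors within a library, the mean log2 CPM of the 7 repressors was taken from that of the activators, 2 in liver and 3 in eWAT. In liver this difference was -2.95, -2.69, -2.79, -2.86 and -2.99 in the IR 4A libraries, against -0.79, -3.01, -1.81, -2.79 and -3.28 in the WT libraries. The IR 4A livers formed a tight group with an SD of 0.122, while WT 2, WT 4 and WT 5 ran from -3.28 to -2.79 and WT 1 and WT 3 stood far above. The means were -2.86 in IR 4A and -2.34 in WT, a difference of -0.52, which became -0.13 without WT 1, -0.39 without WT 3 and 0.17 without both. In eWAT the values were -2.17, -2.10, -1.53, -1.92 and -2.16 in IR 4A, against -1.85, -2.05, -2.05, -2.49 and -1.87 in WT. Their means of -1.98 and -2.06 differed by 0.08, less than the SD of 0.269 among the IR 4A libraries, and the difference became -0.19 without WT 4, IR 4A 3 and IR 4A 4. Members were chosen with results of these data known, so the difference has no p-value.

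**Figure D5:**
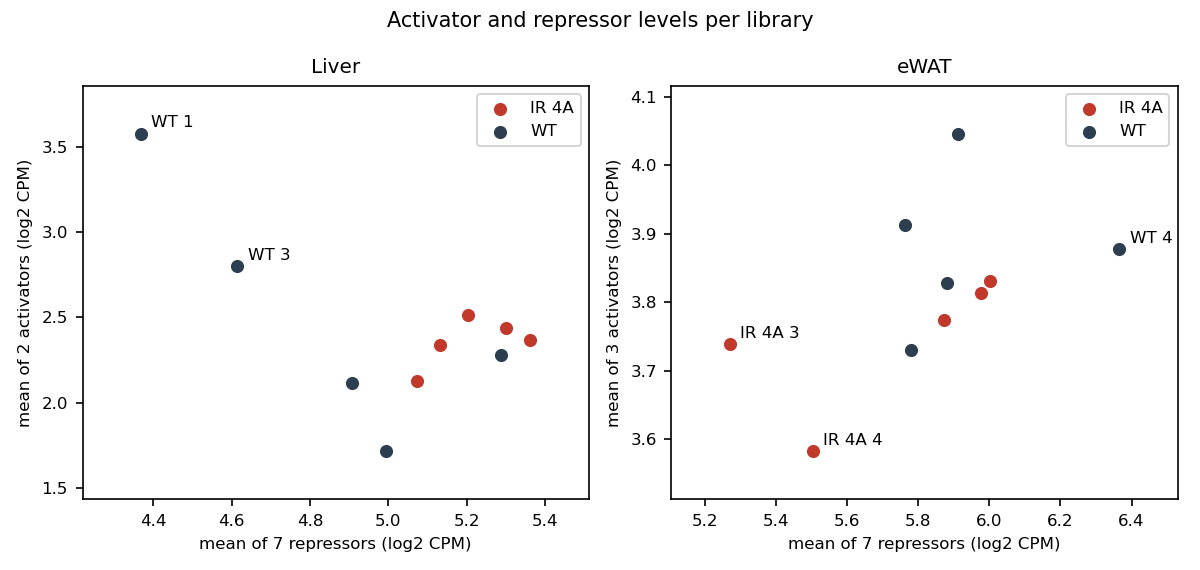
Mean log2 CPM of the activators against that of the 7 repressors in each library of liver (left) and eWAT (right). Liver WT 1 and WT 3 have the highest activator means, 3.58 and 2.80, and the lowest repressor means, 4.37 and 4.61. The 5 IR 4A livers lie between 2.12 and 2.52 in activators and between 5.07 and 5.36 in repressors.

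A shift of collection time can raise 1 arm and lower the other, but members that peak at different times need not all follow. In the livers that opposition was present in WT 1 and WT 3, the same libraries with the highest acute phase genes. Nr1d1 was high and Nr1d2 low in them. Arntl was at 2.97 CPM in WT 1, from 53 counts, and at 1.25 CPM in WT 3, from 25 counts. The IR 4A range was 0.713 to 1.30 CPM. The sources used here give no time of collection, so its part in these levels was not tested, and in WT 1 and WT 3 it cannot be told apart from the acute phase state. Between the genotypes the opposition in liver did not persist without WT 1 and WT 3. In eWAT it was not seen over all 10 libraries. Without WT 4, IR 4A 3 and IR 4A 4 Arntl and Clock were negative and Per2, Per3 and Nr1d2 positive. The libraries kept there also differed between genotypes in testis markers. The activator Npas2 was at 0.23 and the repressor Cry1 at -0.31 there. Nr1d1, Per1 and Cry2 were at -0.01, -0.04 and 0.05, and no member passed the threshold. In both tissues the libraries left out held the highest or lowest repressor means, so leaving them out moves these values by itself.

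Whether the difference between IR 4A and WT was itself different in eWAT and liver was asked with an interaction term over all 20 libraries. None of the 10 members passed an adjusted p of 0.05 (edgeR's quasi-likelihood test, Benjamini-Hochberg), against 2.41% of 14696 genes. The change in eWAT minus that in liver was -0.58 ± 0.20 for Cry2 (adjusted p = 0.105, same edgeR test), -0.61 ± 0.26 for Per1, -0.83 ± 0.38 for Per3 and -0.84 ± 0.44 for Per2. The other repressors were at -0.52 for Cry1, -0.35 for Nr1d1 and -0.25 for Nr1d2, so all 7 were negative. Over all genes the median was -0.12, and 39.2% were positive. Arntl was at -0.01 ± 0.52 and Clock at 0.14 ± 0.21. Npas2 was at 1.39 ± 0.65, a value that rests on 4 and 9 liver counts. Without eWAT WT 4, IR 4A 3 and IR 4A 4 Nr1d1 turned to 0.20 and Nr1d2 to 0.11, and the other 5 repressors stayed negative. Without liver WT 1 and WT 3 Cry2 was at -0.43, Per3 at -0.58 and Arntl at -1.0, and none passed.

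In WT mice 7 of 10 members passed an adjusted p of 0.05 between eWAT and liver (edgeR's quasi-likelihood test, Benjamini-Hochberg), but so did 77.1% of all genes. The eWAT levels here and below include the epididymis and testis RNA described above, whose part in the tissue differences was not tested. On CPM scaled over all 20 libraries Arntl averaged 8.07 ± 0.662 CPM in WT eWAT and 2.01 ± 1.72 CPM in WT liver, a log2 fold change of 2.01 ± 0.36 (edgeR quasi-likelihood test, adjusted p = 5.08e-05). Npas2, which is among the 7, had 42 to 96 counts in each WT eWAT library and 1 to 3 in each WT liver. It did not pass the filter in liver and entered this fit only through its eWAT counts, so its call adds no support. Its summed counts gave a 15.8-fold higher level in WT eWAT, with an exact 95% Poisson interval of 8.30 to 34.5 that covers the counting error of the liver counts only. Per1 at 0.53 ± 0.19 and Per3 at 0.72 ± 0.27 were the other 2 higher in WT eWAT, but both calls rested on a few libraries. Without eWAT WT 4 Per1 was at 0.17 and Per3 at 0.41 (edgeR quasi-likelihood test, adjusted p = 0.323 and 0.167). Without liver WT 1 and WT 3 they were at 0.37 and 0.46 (edgeR quasi-likelihood test, adjusted p = 0.118 and 0.134). Per3 was also at 0.53 without liver WT 1 (edgeR quasi-likelihood test, adjusted p = 0.0541).

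Cry2, Nr1d1 and Nr1d2 were lower in WT eWAT than in WT liver, with log2 fold changes of -0.72 ± 0.14, -1.16 ± 0.26 and -1.30 ± 0.13. Clock at -0.32 ± 0.15, Per2 at -0.37 ± 0.31 and Cry1 at 0.57 ± 0.31 did not pass. These signs are relative to scaling: the median over all genes was 0.18 with TMM scaling and 1.64 without scaling, where Cry2 stood at 0.76, Nr1d1 at 0.32 and Nr1d2 at 0.19, above 0 yet below that median. In IR 4A mice 6 members passed, against 75.3% of all genes: Arntl and Npas2 higher in eWAT, and Per2, Cry2, Nr1d1 and Nr1d2 lower. Npas2 was again in the fit only through its eWAT counts.

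The order of the 4 groups, on CPM scaled over all 20 libraries, split by tissue, with a step between the tissues that passed the test, in 5 of the 10 genes. Neighbours of unlike tissue and genotype were tested in the same way, where 76.1% of all genes passed between IR 4A eWAT and WT liver and 76.2% between WT eWAT and IR 4A liver. Arntl ran 8.07 ± 0.662 in WT eWAT, 7.13 ± 1.04 in IR 4A eWAT, 2.01 ± 1.72 in WT liver and 1.78 ± 0.374 in IR 4A liver, and of its neighbours only IR 4A eWAT and WT liver differed (edgeR quasi-likelihood test, adjusted p = 0.000138). Npas2, in the fit only through its eWAT counts, split in the same place between eWAT and liver. Cry2, Nr1d1 and Nr1d2 split the other way, with both livers above both eWAT groups. Nr1d2 stood at 201 ± 17.5 CPM in IR 4A liver, 167 ± 22.0 in WT liver, 68.8 ± 14.1 in IR 4A eWAT and 68.0 ± 8.55 in WT eWAT. The Per2 means were also split by tissue, at 25.5 and 29.8 CPM in IR 4A and WT eWAT and 59.1 and 38.6 CPM in IR 4A and WT liver, without such a step. For Clock, Per1, Per2 and Cry1 no 2 neighbours in the order differed past the threshold. Per3 had 61.2 ± 13.5 CPM in IR 4A liver, 57.5 ± 14.8 in WT eWAT and 56.4 ± 16.6 in IR 4A eWAT, with WT liver below them at 35.0 ± 13.9 (edgeR quasi-likelihood test against IR 4A eWAT, adjusted p = 0.0267).

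Per kilobase of the longest annotated transcript the REV-ERB genes were the most abundant members in liver. Nr1d1 stood at 45.1 ± 10.5 CPM per kilobase in IR 4A and 49.7 ± 13.1 in WT liver, and Nr1d2 at 43.1 ± 3.75 in IR 4A and 35.9 ± 4.73 in WT liver. Arntl stood at 0.446 ± 0.0937 in IR 4A and 0.503 ± 0.431 in WT liver on the same scale. In eWAT Nr1d1 and Per1 were alike in mean level per kilobase, at 15.8 ± 5.75 and 17.4 ± 1.35 in IR 4A and 22.2 ± 6.97 and 22.0 ± 6.51 in WT. Nr1d2 was at 14.8 ± 3.03 in IR 4A and, below the means of both, at 14.6 ± 1.83 in WT. Arntl was at 1.78 ± 0.259 in IR 4A and 2.02 ± 0.166 in WT.

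Over the 10 livers Arntl went with Clock (Pearson r = 0.66, permutation p = 0.0541; Spearman rho = 0.15, permutation p = 0.682) and with Nr1d1 (r = 0.55, permutation p = 0.0975; rho = 0.48, permutation p = 0.166), and against Per2 (r = -0.53, permutation p = 0.148; rho = -0.12, permutation p = 0.757). None of the 12420 genes passed after adjustment over all of them, and the adjusted p was 0.465 for Clock. Without WT 1 and WT 5, the 2 livers farthest from the Arntl median, r fell to 0.21 for Clock and to -0.04 for Nr1d1, so the relation rests on those livers. Within liver the Clock level was opposed to Per2 (r = -0.92), Cry2 (r = -0.83) and Nr1d2 (r = -0.85), as a description over 10 libraries that include WT 1 and WT 3. Over the 10 eWAT libraries the strongest relation of Arntl was with Nr1d2 (r = -0.56, permutation p = 0.0910; rho = -0.67, permutation p = 0.0379; adjusted p = 1.00 over 16475 genes), and r was -0.32 without IR 4A 1 and IR 4A 2.

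The genes most like Arntl over the 10 livers were Ctsl, Dlg5, Appl1, Afdn and Fam8a1, with r of 0.91 to 0.92, and the most opposed were Dgcr6, Nop10, Syt11, Ppp1r3g and Kcp, with r of -0.96 to -0.91. Over the 10 eWAT libraries they were Csmd1, Irs4, Tmem82, Nalcn and Dpp4, with r of 0.81 to 0.91, and Veph1, Pde8b, Ndufa5, Ythdf2 and Bclaf3, with r of -0.89 to -0.86. No relation passed the adjustment over all genes in either tissue, and the lists share no gene.

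Next to the core loop stand genes that it drives or that feed back on it, among them Dbp, Tef and Hlf, which activate through the D-box, their opponent Nfil3, the activator Rora, and the repressors Bhlhe40, Bhlhe41 and Ciart. In liver 0 of the 9 genes tested passed the threshold, 4 were higher at an unadjusted p under 0.05, as were 8.6% of all genes, and 8 of 9 had positive log2 fold changes with a median of 0.39, against 0.00 over all genes. Rora, which activates Arntl through the ROR element, averaged 64.0 ± 8.16 CPM in IR 4A and 49.5 ± 3.65 CPM in WT livers (SD, n = 5 each), with a log2 fold change of 0.37 ± 0.09 (edgeR quasi-likelihood test, adjusted p = 0.127). Bhlhe40 averaged 115 ± 21.2 CPM in IR 4A and 77.5 ± 18.9 CPM in WT livers, with 0.57 ± 0.18 (edgeR quasi-likelihood test, adjusted p = 0.160). Nfil3, whose phase is opposed to that of Dbp, was the 1 gene with a negative value, -0.44 ± 0.30. Without WT 1 and WT 3 the median was 0.18. Rora was then at 0.35, Bhlhe40 at 0.43, Dbp at 0.16 and Nfil3 at -0.04.

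In eWAT 5 of these 9 genes had positive log2 fold changes with a median of 0.09, and 0 passed. Hlf averaged 51.1 ± 7.61 CPM in IR 4A and 41.4 ± 6.82 CPM in WT eWAT (SD, n = 5 each), a log2 fold change of 0.30 ± 0.14 (edgeR quasi-likelihood test, adjusted p = 0.331). Bhlhe40 was at 0.42 ± 0.22 and Dbp at -0.06 ± 0.31. Without WT 4, IR 4A 3 and IR 4A 4, 8 of the 9 were positive with a median of 0.30, Dbp at 0.49 ± 0.21 and Hlf at 0.42 ± 0.15 among them, and 0 passed.

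The kinases, phosphatases and ubiquitin factors that set the life of PER and CRY proteins had 0 of 23 tested members past the threshold in both tissues, with medians of 0.00 in liver and -0.05 in eWAT. Csnk2b had the smallest unadjusted p in liver (log2 fold change -0.24), and the smallest in eWAT belonged to Gsk3a (0.30) and Prkaa1 (-0.43). Chromatin and co-repressor partners had 0 of 24 in both tissues, with medians of 0.06 in liver and -0.05 in eWAT, where Ncor1, the co-repressor that REV-ERB proteins recruit, was at -0.39 ± 0.15. In liver Crebbp was at -0.23 and Tbl1x at 0.17, and Crebbp was at -0.17 in eWAT. Clock-controlled targets had 0 of 20 in liver, with a median of 0.04, and 0 of 18 in eWAT, with a median of -0.34 that became 0.06 without WT 4, IR 4A 3 and IR 4A 4. Slc45a3 was at 1.01 and Lpin1 at -0.65 in eWAT, and Pnp at -0.74 in liver. Elovl3, a fatty acid elongase under circadian control, averaged 28.5 ± 9.56 CPM in IR 4A and 56.8 ± 12.7 CPM in WT livers, with -0.998 ± 0.215 (edgeR quasi-likelihood test, adjusted p = 0.109).

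Signals that can reset Per genes directly were read from 3 lists. Glucocorticoid-induced genes had 0 of 13 past the threshold in liver with a median of -0.23, and 0 of 14 in eWAT with a median of -0.39, and without liver WT 1 and WT 3 the liver median was 0.18. The eWAT median was 0.24 without WT 4, IR 4A 3 and IR 4A 4. The smallest p-values belonged to Ddit4 (-1.17) and Lcn2 (-4.56), which is also an acute phase gene, in liver, and to Klf9 (-0.66) and Dusp1 (-0.83) in eWAT. Temperature-responsive genes had 0 of 12 in each tissue, with medians of -0.07 in liver and -0.02 in eWAT. Hsp90aa1 (-0.45) and Hspa1b (-0.61) had the smallest p-values in liver, and Cirbp (0.42) and Hspa1b (0.39) in eWAT. Immediate early genes, which answer within minutes to many stimuli, had 0 of 17 in liver and 0 of 21 in eWAT. In liver 8 of the 17 were higher at an unadjusted p under 0.05, against the same 8.6% of all genes, and the median was 0.49. Btg2 averaged 16.7 ± 2.88 CPM in IR 4A and 9.27 ± 2.66 CPM in WT livers, with 0.85 ± 0.18 (edgeR quasi-likelihood test, adjusted p = 0.109), and Ier2 was at 0.43 ± 0.11. Without WT 1 and WT 3, 7 of 18 were higher at that p and the median was 0.55. In eWAT the median was -0.21, with Klf4 at -0.87 and Jund at 0.40, and it was 0.05 without WT 4, IR 4A 3 and IR 4A 4.

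No member passed in the authors' own comparison either. The authors' deposited table for liver listed its smallest adjusted p among the members for Per3 (log2 fold change 0.73, adjusted p = 0.129), and the authors' deposited table for eWAT for Clock (-0.29, adjusted p = 0.140).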

How the data were processed

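Poly-A RNA was sequenced from stranded libraries made together, per the labels' protocols. The deposited count tables hold whole-number counts per gene, and the submitters' processing notes name Salmon 1.8.0, DESeq2 1.32.0 and GRCm39, without settings. The authors' deposited DESeq2 tables give a mean signal, a log2 fold change with its error, a test score and a p-value per gene. Members, lists and the libraries left out were chosen with earlier results of these data known. Entries that repeated an identifier (83 in liver, 208 in eWAT) were dropped. The deposited normalized tables were not used.

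Genes passed filterByExpr of edgeR 4.0.16 (minimum count 10, total 15). CPM are TMM-scaled within a tissue unless said to be scaled over all 20 libraries. IR 4A was set against WT in each tissue, and tissues and the interaction over 20 libraries, by edgeR's two-sided quasi-likelihood test with Benjamini-Hochberg adjustment over all genes (threshold 0.05; R 4.3.3). Correlations used log2 CPM (prior count 2) and two-sided permutation tests of 100000 resamples. The alternatives used limma 3.58.1, DESeq2 1.42.0 and sva 3.50.0. Scripts were tested on simulated data. Intervals cover counting error only. Transcript lengths came from a GRCm38 annotation, another build than the authors'. No pair of libraries agreed within sampling noise (chi-square per degree of freedom at least 12.5 in liver and 13.5 in eWAT). Named genes were all members, the list members past the threshold or else the 2 with the smallest unadjusted p, the 5 genes at each end of the correlation with Arntl with a mean of at least 1 CPM, and Insr, plus the output loop genes given beside them, which were chosen after their values were seen. Some genes that the rule names are not reported here.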

Additional observations from a re-analysis of the deposited data

Results flagged for a closer look

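In 44 sets of 5 libraries (10 genes and the activator minus repressor difference in 4 groups) 2 held a library far from the others by Dixon's criterion, which chance alone passes in about 1 set of 20. Clock stood at 71.3 CPM in eWAT WT 2, while the other WT eWAT libraries ran from 57.3 to 61.3 CPM. Per1 stood at 243 CPM in eWAT WT 4, while the others ran from 127 to 151 CPM. WT 4 also held the highest adipocyte marker sum, 30954 CPM, and the lowest epididymis marker sum, 5092 CPM. Their part in the Per1 value was not tested by itself.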

How the results depend on the processing

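Under the alternatives no member passed the threshold in liver. In eWAT, of 10 members, DESeq2 called 1 (Clock; 7.31% of all genes), 1 surrogate variable 2 (Cry2 and Nr1d1; 10.3%), the testis covariate 2 (the same; 10.9%) and the adipocyte covariate 1 (Per3; 5.26%). In liver Arntl turned to 0.24 with limma voom, 0.053 with the replicate block, 0.54 with 1 surrogate variable and 0.78 without WT 1 and WT 3, and ran from -0.44 to 0.44 with 1 library left out. Cry1 (-0.060), Nr1d1 (0.050) and the activator minus repressor difference (0.17) turned without WT 1 and WT 3. In eWAT the sign turned for Per2 with limma voom (0.050), the epididymis covariate (0.10), the adipocyte covariate (0.31) and without WT 4, IR 4A 3 and IR 4A 4 (0.32), and for Per3 with upper-quartile scaling (0.028), limma voom (0.10), the epididymis covariate (0.17), the adipocyte covariate (0.40), without the 4 libraries high in testis markers (0.036) and without WT 4, IR 4A 3 and IR 4A 4 (0.40). Cry1 turned to 0.043 without the 4 libraries, Cry2 to 0.035 with the adipocyte covariate and 0.053 without the 3 libraries, and the difference to -0.19 without the 3. Nr1d2 turned to -0.012 with the replicate block, -0.071 with 1 surrogate variable and -0.065 with the testis covariate. With 1 library left out Npas2 ran from -0.045 to 0.17, Per2 from -0.34 to 0.041, Per3 from -0.15 to 0.12, Cry1 from -0.26 to 0.025, Nr1d2 from -0.076 to 0.10 and the difference from -0.026 to 0.14. For the change in eWAT minus that in liver Arntl turned to 0.044 with RLE, 0.091 with upper-quartile scaling and 0.044 with DESeq2, and ran from -0.65 to 0.23 with 1 library left out, Clock turned to -0.21 without liver WT 1 and WT 3 and ran from -0.0483 to 0.23, and Nr1d1 (0.20) and Nr1d2 (0.11) turned without the 3 eWAT libraries. Between tissues in WT, no scaling turned Clock (1.18), Per2 (1.10), Cry2 (0.76), Nr1d1 (0.32) and Nr1d2 (0.19), and Clock was at 0.034 without liver WT 1 and WT 3. With 1 library left out 6 to 9 members passed there, and Per1 ran from 0.17 to 0.66 and Per3 from 0.41 to 0.94. The correlation with Arntl without the 2 farthest libraries turned in liver for Per1 (0.072), Per3 (0.38), Cry2 (0.25), Nr1d1 (-0.044) and Nr1d2 (0.17), and in eWAT for Npas2 (0.56), Cry1 (-0.16) and Cry2 (0.039). Where no fit above shows it, the cause was not tested.

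Replicate numbers showed no pairing in the correlations that follow, which cannot show whether libraries came from 1 animal. The tests over 20 libraries treat all libraries as independent. Same-numbered libraries correlated at -0.07 to 0.08 in liver and -0.73 to 0.67 in eWAT between genotypes, and at -0.16 to 0.07 between tissues of 1 genotype. With the replicate number as a block 0 members passed in either tissue and 8 between tissues in WT. Arntl in liver rests on 7 to 53 counts per library, and Npas2 there on 0 to 3. Over all genes the edgeR test called 0 higher and 1 lower in liver. There DESeq2 called 200 and 226, no scaling 374 and 12, 1 surrogate variable 5 and 3, limma voom 2 and 2, and the replicate block 2 and 1, and without IR 4A 1 the edgeR test called 80 and 63. In eWAT it called 0 higher and 2 lower, DESeq2 523 and 681, limma voom 18 and 60, 1 surrogate variable 174 and 1526, the testis covariate 190 and 1601, and the adipocyte covariate 42 and 825.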
